A study of Rattus norvegicus with 8 samples.

Results

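The genes described here are Scd and 9 other genes of de novo lipogenesis in rat liver: Thrsp, Fasn, Acaca, Acly, Elovl6, Me1, Mlxipl, Srebf1 and Pnpla3. They were chosen by name, with earlier results of these data known, above all the high Scd signal in part of the livers. Every probe set (a group of oligonucleotide probes for one transcript) annotated to exactly 1 gene, that gene being among the 10, was taken. This gave 19 probe sets for the 10 genes, of 14217 genes and 31042 probe sets in all. Because the contrast between the diets helped to choose the genes, their diet differences are given as a description. Where counts from the fit to all probe sets include them, the counts are printed for reference and support nothing.

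The data are 8 liver RNA arrays, 1 per rat, from male Sprague-Dawley rats aged 7 weeks. For 2 weeks all rats ate the chow CRF-1, supplemented per kg with cholesterol (10 g) and cholic acid (5 g). The control group (4 arrays) had nothing further. The diet of the L. brevis group (4 arrays) also held freeze-dried viable cells of Lactobacillus brevis119-2, isolated from turnip, at 10 g per kg. For the control arrays the source label mentions only CRF-1; the added cholesterol comes from the series' design text. The study held 11 rats per group with free access to food. How the arrayed rats were picked, whether they were fasted and the hour of sampling were not stated. No group without added cholesterol was analysed here, so the levels below are those of cholesterol-loaded livers. The 8 hepatocyte markers that varied, among them albumin, had rat means from 13.60 to 13.74 log2, which fits the labelled tissue.

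De novo lipogenesis turns carbohydrate carbon into fatty acids. ATP citrate lyase (Acly) makes cytosolic acetyl-CoA, acetyl-CoA carboxylase (Acaca) commits it, fatty acid synthase (Fasn) builds palmitate, Elovl6 lengthens it and stearoyl-CoA desaturase (Scd) inserts the double bond that yields oleate and palmitoleate. The pathway is driven by insulin and sterol signals through SREBP-1c (Srebf1) and by sugars through ChREBP (Mlxipl). In liver, the oxysterol receptor LXR, which responds to cholesterol load, is known to act on Srebf1 and Scd.

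The RefSeq sequence of 250 bases before the annotated start, in build GRCr8, is shown for Scd, Thrsp, Srebf1 and Mlxipl, on which the account turns. The rats with the highest Thrsp overlapped both those with the highest Scd and those with the highest Srebf1. Mlxipl was lower in all L. brevis livers. Capitals mark matches, on either strand, to 5 motifs searched: CCAAT (the NF-Y box), GGGCGG (an Sp1 box), CACGTG (an E-box), AGGTCA (a nuclear receptor motif) and TCACCCC (the core of a sterol regulatory element). No match overlapped another. Of the 10 genes 7 were matched to such windows; the first of the Mlxipl windows is shown.
Scd, minus strand, chr1:253231732-253231981: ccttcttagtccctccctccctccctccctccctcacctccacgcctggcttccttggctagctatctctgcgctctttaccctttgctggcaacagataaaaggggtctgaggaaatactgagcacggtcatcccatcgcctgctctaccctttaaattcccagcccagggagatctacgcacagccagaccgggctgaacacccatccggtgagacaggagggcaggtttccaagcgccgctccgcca
Thrsp, minus strand, chr1:161138965-161139214: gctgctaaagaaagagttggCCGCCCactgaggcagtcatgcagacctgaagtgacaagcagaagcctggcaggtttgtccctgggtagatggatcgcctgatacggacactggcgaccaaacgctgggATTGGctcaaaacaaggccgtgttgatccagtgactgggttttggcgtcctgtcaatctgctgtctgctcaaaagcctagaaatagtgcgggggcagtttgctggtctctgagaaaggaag
Srebf1, upstream start, minus strand, chr10:45529165-45529414: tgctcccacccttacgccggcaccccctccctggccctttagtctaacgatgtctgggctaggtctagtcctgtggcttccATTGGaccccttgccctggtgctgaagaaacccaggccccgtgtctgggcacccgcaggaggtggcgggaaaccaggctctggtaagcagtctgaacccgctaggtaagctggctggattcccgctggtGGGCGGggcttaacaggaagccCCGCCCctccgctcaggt
Srebf1, downstream start, minus strand, chr10:45519011-45519260: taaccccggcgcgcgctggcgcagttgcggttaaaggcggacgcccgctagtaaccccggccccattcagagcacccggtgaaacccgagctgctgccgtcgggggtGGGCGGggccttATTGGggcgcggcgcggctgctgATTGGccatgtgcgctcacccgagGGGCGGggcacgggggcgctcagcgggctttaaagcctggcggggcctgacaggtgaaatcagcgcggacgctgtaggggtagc
Mlxipl, minus strand, chr12:27213661-27213910: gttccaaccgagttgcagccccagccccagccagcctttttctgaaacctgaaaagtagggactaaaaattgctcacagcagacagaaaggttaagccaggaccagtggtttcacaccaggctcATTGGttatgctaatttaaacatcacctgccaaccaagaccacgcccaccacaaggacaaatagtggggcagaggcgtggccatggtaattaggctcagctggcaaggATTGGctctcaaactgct
The Scd window held none of the 5 motifs. The Thrsp window held 1 CCAAT match and 1 GGGCGG match. The upstream Srebf1 window held 1 CCAAT and 2 GGGCGG matches, the downstream one 2 of each, and the Mlxipl window 2 CCAAT matches. Of 33469 rat promoter windows of this length, 34.0% held CCAAT, 30.5% GGGCGG, 14.1% AGGTCA, 5.59% CACGTG and 3.86% TCACCCC. Such a match is a string of letters, not a shown binding site.

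The deposited table gives 1 log2 signal per probe set and array, normalized by the authors. In 24719 of the 31042 probe sets the value was the same on all 8 arrays to within 0.01 log2, a property of the processing that hides any difference between rats. The remaining 6323 probe sets are termed varying here, and 4159 genes had at least 1. Of the 10 lipogenesis genes 6 had a varying probe set (Scd, Thrsp, Acaca, Me1, Mlxipl and Srebf1) and 4 did not. Over their 19 probe sets 9 varied and 10 did not. For Fasn (7.46 and 6.46 log2), Acly (8.73), Elovl6 (6.69 and 5.86) and Pnpla3, a triglyceride and retinyl ester hydrolase also called adiponutrin (6.09, 5.98 and 5.97), each probe set held its value in every rat. These 4 genes, among them the enzymes Fasn, Acly and Elovl6, therefore have no measured diet difference here, which does not show that their RNA was equal. The second Me1 probe set (7.46) and the second Acaca probe set (6.34) were flat too. So was Scd2, the paralog of Scd, at 7.61.

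Scd, the desaturase, was low in all control livers and in 1 L. brevis liver, and far higher in the other 3. Its 1 probe set read 8.90, 8.21, 9.18 and 8.88 log2 in control rats 1 to 4, and 8.83, 12.22, 11.77 and 12.29 in L. brevis rats 1 to 4. L. brevis 1 lay inside the control range, so the groups overlapped. Nothing lay between 9.18 and 11.77, so the 8 rats formed 2 separate clusters. The means were 8.79 ± 0.41 in control and 11.28 ± 1.65 in L. brevis livers (SD, n = 4 each), a difference of +2.49 log2 (fitted SE 0.76), 5.60-fold. The spread in the L. brevis group comes mainly from L. brevis 1: without it the difference was +3.30 (SE 0.25). Between the lowest and the highest rat Scd differed 16.9-fold, a wider range than in all but 44 of the 4159 varying genes (1.06%). Since the high Scd signal in part of the livers led to the choice of the genes, this rank is a description.

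**Figure D1:**
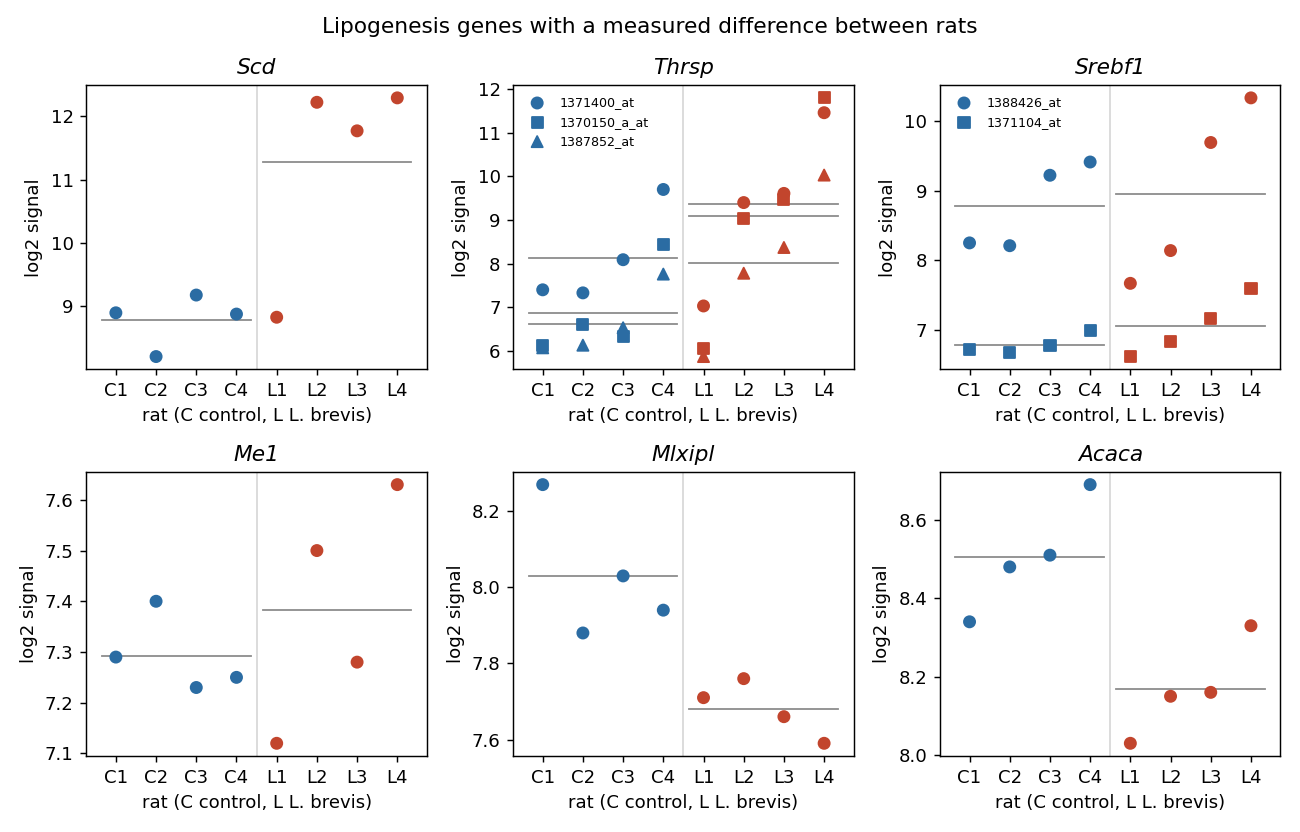
Log2 signal of the 6 lipogenesis genes with a varying probe set in each rat (C1 to C4 control, L1 to L4 L. brevis), 1 marker shape per probe set and grey lines at group means. Scd sits between 11.77 and 12.29 in 3 of the 4 L. brevis livers and between 8.21 and 9.18 in the other 5 livers.

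Thrsp (Spot 14), a small nuclear protein induced with lipogenesis by thyroid hormone, insulin and carbohydrate, varied about as widely. Its brightest probe set read 7.40, 7.33, 8.09 and 9.70 in control rats 1 to 4 and 7.03, 9.40, 9.61 and 11.46 in L. brevis rats 1 to 4. L. brevis 4 was highest and L. brevis 1 lowest, while control 4 stood with L. brevis 2 and 3. The means were 8.13 ± 1.10 and 9.37 ± 1.82 (SD, n = 4 each), a difference of +1.24 (SE 0.96), 2.37-fold and within the spread between rats. The other Thrsp probe sets gave the same picture with differences of +2.22 (SE 1.16) and +1.39 (SE 0.85). Across the 8 rats the 3 probe sets ran together, with Pearson r from 0.97 to 0.99 between pairs. At the widest of them L. brevis 4 was at 11.80 and L. brevis 1 at 6.05, a 53.7-fold span between rats on the same diet.

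Srebf1, which encodes the lipogenic transcription factor SREBP-1, also differed more between rats than between diets. Its brighter probe set read 8.25, 8.21, 9.22 and 9.41 in control rats 1 to 4 and 7.67, 8.14, 9.69 and 10.33 in L. brevis rats 1 to 4. Rats 3 and 4 of each diet were the 4 highest, and L. brevis 2, among the highest for Scd, was among the lowest. The means were 8.77 ± 0.63 and 8.96 ± 1.25 (SD, n = 4 each), a difference of +0.18 (SE 0.63). Leaving out 1 rat moved that difference between -0.27 (without L. brevis 4) and 0.61 (without L. brevis 1), so it had no stable sign. The dimmer probe set differed by +0.26 (SE 0.21), with a Pearson r of 0.89 to the brighter one over the 8 rats. The files do not say whether either probe set tells SREBP-1a from SREBP-1c.

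Mlxipl, which encodes the sugar-sensing factor ChREBP, was lower in the L. brevis group with no overlap. Its values were 8.27, 7.88, 8.03 and 7.94 in control rats 1 to 4 and 7.71, 7.76, 7.66 and 7.59 in L. brevis rats 1 to 4. All 4 L. brevis livers lay below the lowest control, and control 1 was the highest. The difference was -0.35 (SE 0.10), a 1.28-fold lower level, with group SDs of 0.17 and 0.07.

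Acaca, the rate-controlling carboxylase, showed a similar shift. It read 8.34, 8.48, 8.51 and 8.69 in control rats 1 to 4 and 8.03, 8.15, 8.16 and 8.33 in L. brevis rats 1 to 4. The highest L. brevis value was just under the lowest control value. The difference was -0.34 (SE 0.10), 1.26-fold lower, with group SDs of 0.14 and 0.12. Me1, the malic enzyme that supplies NADPH for fatty acid synthesis, read 7.29, 7.40, 7.23 and 7.25 in control rats 1 to 4 and 7.12, 7.50, 7.28 and 7.63 in L. brevis rats 1 to 4. Its difference of +0.09 (SE 0.12) was inside the spread between rats.

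At their brightest varying probe sets 4 of the 6 genes were thus higher and 2 lower with L. brevis, with a median difference of 0.14. Over all 4159 varying genes the median was -0.027 and 44.7% were higher. None of the 9 varying probe sets of the lipogenesis genes passed an adjusted p of 0.05 in the fit to all 6323 varying probe sets (limma, Benjamini-Hochberg), where 0.0633% of probe sets passed, 0 of them higher and 4 lower. Without adjustment 3 of the 9 (Scd, Acaca and Mlxipl) had p under 0.05, as did 24.5% of all varying probe sets. The diets did not overlap in 2 of the 9, both lower, against 11.3% of all varying probe sets without overlap and 7.09% lower without overlap. Since the genes were chosen with this contrast known, nothing is read from these counts.

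**Figure D2:**
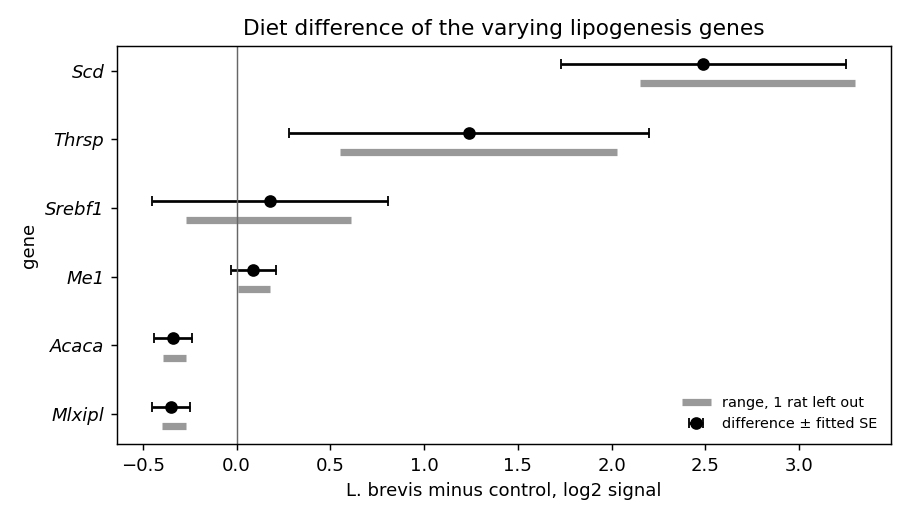
L. brevis minus control difference in log2 signal for the brightest varying probe set of each gene (points, with the fitted SE) and the range when 1 rat is left out (grey bars). Scd runs from 2.15 to 3.30 and Srebf1 from -0.27 to 0.61, across zero.

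The count of calls hung on L. brevis 1. Without that rat 542 of the 6323 varying probe sets were higher (8.57%) and 604 lower by limma (18.1% in all). With limma's array weights, highest for L. brevis 3 (3.36) and lowest for L. brevis 1 (0.32), 24.7% of varying probe sets were called. The Scd difference with these weights was +3.01 (SE 0.47). Of the 9 varying probe sets of the lipogenesis genes, Scd and a Thrsp probe set were called higher without L. brevis 1 (limma). With array weights the same probe sets were called higher, and Acaca and Mlxipl lower. Of all varying probe sets 18.1% and 24.7% were called in these fits, and nothing is read from the calls. L. brevis 1 is also the L. brevis rat without the high Scd signal that led to the choice of the genes, so a larger Scd or Thrsp difference without it, or with little weight on it, is a description and no test. The same holds for Mpc1, Cyb5a, Rxra and Hadhb below, the pathway genes called without that rat. L. brevis 1 carries the same label as the other L. brevis rats and nothing in the labels sets it apart.

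Likeness to Scd over the 8 rats was measured by Pearson r on the log2 values. Because Scd formed 2 separate clusters of rats, r mostly records whether L. brevis 2, 3 and 4 stood apart, and neither cluster is large enough for a correlation of its own, so no relation was tested. Among the other lipogenesis genes Thrsp was most like Scd (r = 0.79, Spearman rho 0.71), with r = 0.63 without L. brevis 2 and 4, the 2 rats farthest from the Scd median. Me1 followed at r = 0.66 (rho 0.52), but at -0.07 without the same rats, so its likeness rests on them. Srebf1 had r = 0.49 (rho 0.52), Acaca -0.45 (rho -0.26) and Mlxipl -0.64 (rho -0.43). When each diet's mean was removed first, Thrsp had 0.79, Me1 had 0.71, Srebf1 had 0.65 and Acaca turned to 0.51, while Mlxipl was at 0.01. Those values mostly record how L. brevis 1 stood against L. brevis 2, 3 and 4. The negative r of Mlxipl and Acaca was thus absent once the diet means were removed. Thrsp was also like Srebf1 (r = 0.83, rho 0.83), with r = 0.88 after removal of the diet means. Without L. brevis 1 and 4 the r between Thrsp and Srebf1 was 0.58.

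Of 1205 genes outside the list with a range of at least 1 log2, Cyp3a18, a steroid-metabolizing cytochrome P450, was the most like Scd (r = 0.99, rho 0.98). It read 11.99, 11.85, 12.22 and 12.19 in control rats 1 to 4 and 11.93, 13.23, 13.02 and 13.34 in L. brevis rats 1 to 4. L. brevis 1 again stood with the controls. Next came Mug1, a plasma protease inhibitor (r = 0.97), Rps16, a ribosomal protein (0.96), and Crp, C-reactive protein (0.95). They were followed by Suclg2, a subunit of succinyl-CoA ligase (0.95), Pik3r1, the regulatory subunit of phosphoinositide 3-kinase (0.94), Cfhr4, a complement factor H related gene (0.94), and Agmo, which cleaves ether lipids (0.94). Mug1 spanned 6.63 to 7.77 in control livers and 7.01, 11.18, 10.71 and 12.59 in L. brevis rats 1 to 4. The most opposite profiles were those of Flad1, FAD synthase (r = -0.96), Rrbp1, a ribosome receptor of the endoplasmic reticulum (-0.96), Slc13a3, a dicarboxylate transporter (-0.94), and Gtf3c2, a subunit of a transcription factor for RNA polymerase III (-0.94). After removal of the diet means Cyp3a18 stayed at 0.99, Mug1 at 0.94 and Flad1 at -0.93.

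**Figure D3:**
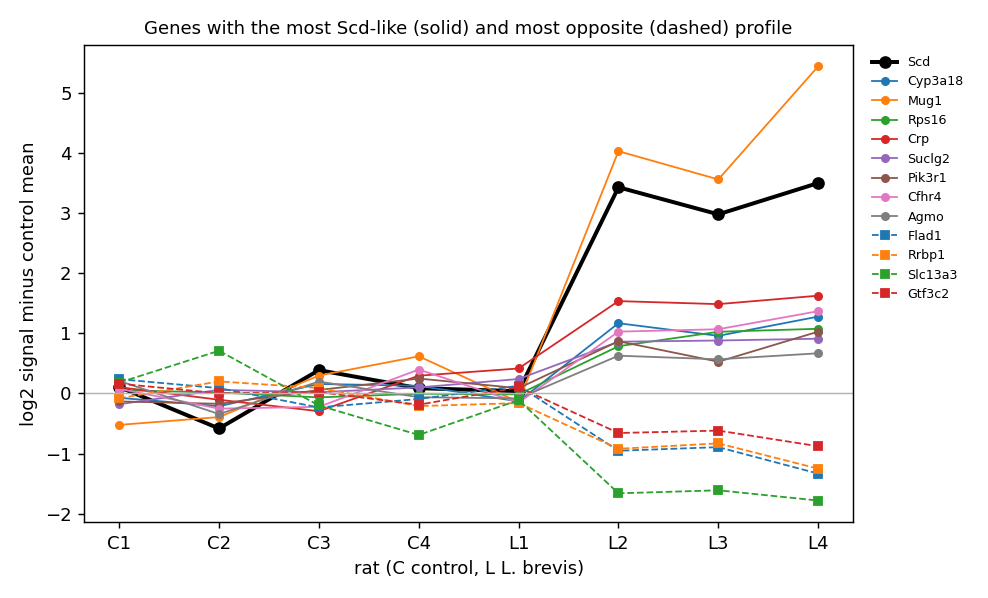
Log2 signal minus the control mean in each rat for Scd (black), the 8 genes most like it (solid) and the 4 most opposite (dashed); lines only join the values of a gene. L. brevis 2, 3 and 4 stand apart from the controls, while L. brevis 1 lies within the control range except for Crp (10.16) and Suclg2 (11.08), where it is just above it.

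Srebf1 had a different companion among the rats. Nr1d2, which encodes the clock repressor REV-ERB-beta and was singled out after its values were seen, read 7.70, 7.88, 9.08 and 9.86 in control rats 1 to 4 and 7.65, 7.28, 9.82 and 10.77 in L. brevis rats 1 to 4. Rats 3 and 4 of both diets were high, as for Srebf1. Over the 8 rats Srebf1 had r = 0.97 with Nr1d2 (rho 0.93), r = 0.97 after removal of the diet means and r = 0.95 without control 4 and L. brevis 4. Thrsp had r = 0.77 with Nr1d2 (0.44 without those rats) and Scd 0.36. Scd differs from Srebf1 at L. brevis 2, with high Scd (12.22) beside low Nr1d2, and at control 4, with low Scd (8.88) beside high Nr1d2. Dbp, a clock output factor, read 8.19 in control 4, 8.56 in L. brevis 3 and 9.87 in L. brevis 4, and 5.77 to 6.37 in the other 5 rats. These clock genes change through the day, the hour of sampling was not stated, and their part in the Srebf1 and Thrsp values was not tested. Of the 11 clock genes that varied, 7 had a higher and 4 a lower mean with L. brevis (limma, 0 called and 0 with p under 0.05 unadjusted). Of all varying probe sets 0.0633% were called and 24.5% had p under 0.05 unadjusted (limma). Per2 differed by +0.98 (SE 0.48, adjusted p = 0.245, limma), Npas2 by -1.01 (SE 0.78, adjusted p = 0.446) and Dbp by +1.16 (SE 0.95, adjusted p = 0.470). The signs for Npas2 and Dbp turned with the GAPDH covariate (+0.52 and -0.53).

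**Figure D4:**
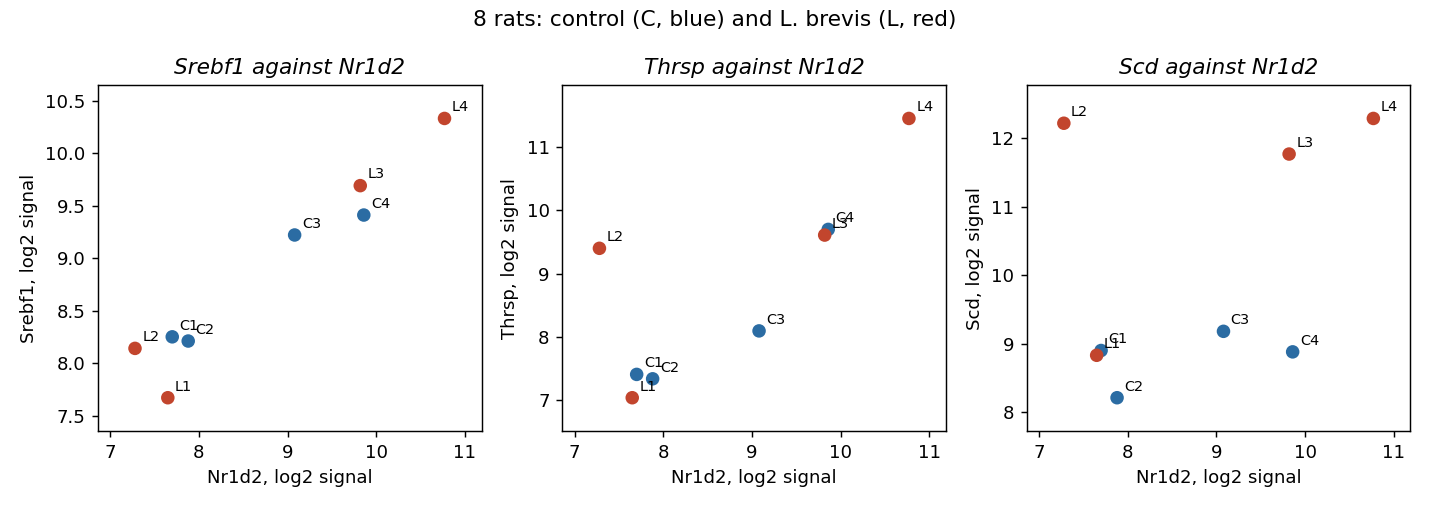
Log2 signals of Srebf1, Thrsp and Scd against that of the clock gene Nr1d2, 1 point per rat, control in blue and L. brevis in red. Srebf1 rises with Nr1d2 over both diets (r = 0.97), whereas for Scd L. brevis 2 and control 4 fall away from such an order (r = 0.36).

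Car3, carbonic anhydrase 3, abundant in male rat liver and in fat, ran with Thrsp in rank (rho 0.95, r = 0.81, singled out after its values were seen). With Srebf1 it had r = 0.86 (rho 0.88) and with Scd r = 0.48 (rho 0.60). After removal of the diet means r was 0.95 with Thrsp, 0.89 with Srebf1 and 0.87 with Scd. Car3 read 11.46, 11.51, 12.30 and 13.92 in control rats 1 to 4. In L. brevis rats 1 to 4 it read 7.93, 11.97, 13.42 and 14.32, with the lowest value again in L. brevis 1. Since Scd and Thrsp are strongly expressed in fat, adipose markers were set beside them. Of 9 measured, 5 were flat, namely Lep, Plin1, Plin4, Aqp7 and Lipe. The 4 that varied were Car3, Adipoq, Cfd and Fabp4. The mean of these 4 ranged from 7.86 to 8.45 in control and from 7.02 to 9.28 in L. brevis rats. Car3 had a range of 6.4 log2 over the 8 rats, against 0.6 for Adipoq, 1.35 for Cfd and 2.36 for Fabp4. The lowest mean, in L. brevis 1, came from Car3 alone. Adipoq, the adiponectin gene of fat cells, lay between 5.98 and 6.58, highest in L. brevis 3. Fabp4, a fatty acid carrier of fat cells and macrophages, read 8.52 in L. brevis 3, 6.79 in L. brevis 2 and 6.74 in L. brevis 4, all above the highest control (6.52), and 6.20 in L. brevis 1. Cfd, the fat-cell protease adipsin, read 7.83, 7.27, 8.61 and 8.12 in L. brevis rats 1 to 4, against 7.26 to 7.76 in control rats. The part of fat tissue in the Scd and Thrsp values was not tested.

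Other features of the arrays moved with the same rats. The GAPDH 5′ minus 3′ signal, a measure of how far along the transcript the labelling reached, was -2.89, -1.83, -2.93 and -1.98 log2 in control rats 1 to 4 and -2.20, -1.30, -0.94 and -0.68 in L. brevis rats 1 to 4. L. brevis 2, 3 and 4 had the highest values, with r = 0.79 to Scd (rho 0.52) and -0.86 to Mlxipl (rho -0.83). The matching beta-actin difference ran from -3.89 to -3.00 in control rats and was -3.50, -2.48, -2.59 and -1.86 in L. brevis rats 1 to 4. With the GAPDH difference as a covariate, added after the data were seen, Scd stood at +1.31 (SE 0.99), Mlxipl at -0.19 (SE 0.12), Thrsp at -0.71 (SE 1.02), Me1 at -0.12, Srebf1 at -0.88 and Acaca at -0.51 (SE 0.11). Probe sets for Bacillus poly-A control transcripts, meant for RNA added before labelling, averaged 8.62 to 9.08 over the 24 that varied in control and 7.48 to 8.33 in L. brevis rats, without overlap. Whether RNA quality or labelling had a part in these differences was not tested beyond that covariate fit. Skeletal muscle genes were high in L. brevis 2 alone (mean of 8 varying markers 8.89, against at most 6.13 in the other 7 rats), and without that rat Scd differed by +2.17. In bulk tissue fewer cells of a type and less RNA per cell cannot be told apart. Means of macrophage markers ranged from 8.69 to 9.16 in control and from 8.88 to 9.27 in L. brevis rats, and those of endothelial markers from 8.66 to 9.28 and from 8.38 to 8.57.

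**Figure D5:**
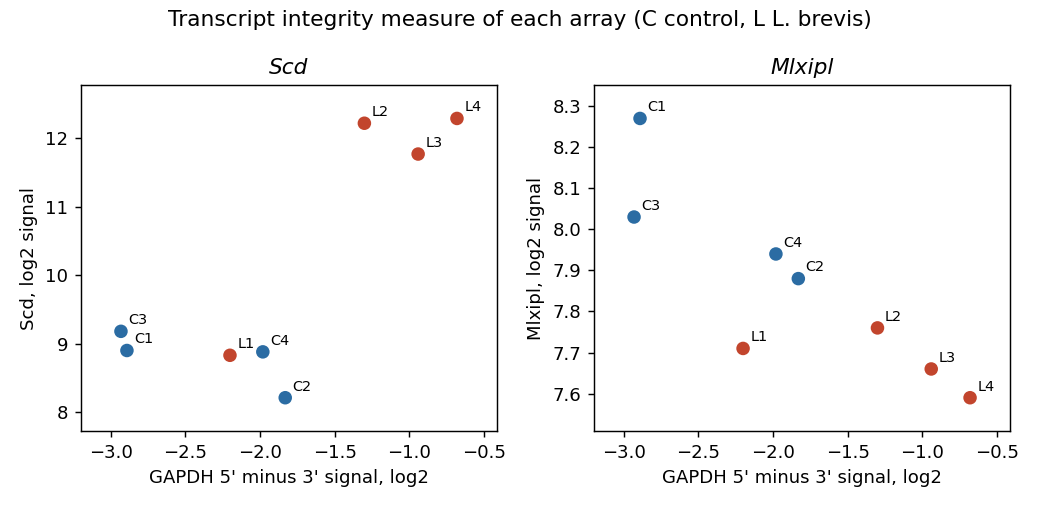
Log2 signal of Scd and Mlxipl against the GAPDH 5′ minus 3′ log2 signal of the same array, 1 point per rat. L. brevis 2, 3 and 4 (-1.30, -0.94 and -0.68) have the highest GAPDH difference and the highest Scd, while L. brevis 1 (-2.20) lies among the controls (-2.93 to -1.83).

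The wider pathway, in lists that leave out the 10 genes, gave no call. The 5 lists covered lipogenic supply, elongation and desaturation, triglyceride synthesis, regulators and further LXR, SREBP and ChREBP targets. In none of the 5 lists did a gene pass the adjusted threshold (limma, 0 called), and 8 had p under 0.05 unadjusted. Of all varying probe sets 0.0633% passed and 24.5% had p under 0.05 unadjusted (limma), so nothing is read from these counts. Of 20 measured genes that supply carbon and NADPH 14 varied, 9 higher and 5 lower, with a median of 0.08. Mpc1 and Mpc2, the subunits of the mitochondrial pyruvate carrier, differed by +0.40 (SE 0.15, adjusted p = 0.171, limma) and +0.30 (SE 0.12, adjusted p = 0.190). Without L. brevis 1, a fit that called 18.1% of all varying probe sets, Mpc1 differed by +0.50 (adjusted p = 0.0497, limma). H6pd, which makes NADPH inside the endoplasmic reticulum, differed by -0.36 (SE 0.12, adjusted p = 0.158).

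Of 20 measured elongation, desaturation and activation genes 13 varied, 7 higher and 6 lower, with a median of 0.00. Cyb5a, cytochrome b5, which passes electrons to Scd, differed by +0.66 (SE 0.20, adjusted p = 0.136, limma). It read 12.06, 12.14, 11.90 and 12.42 in control rats 1 to 4 and 12.27, 12.81, 13.05 and 13.05 in L. brevis rats 1 to 4, so L. brevis 1 was again among the controls and the others above them. In the fit without L. brevis 1, with 18.1% of varying probe sets called, Cyb5a differed by +0.84 (SE 0.13, adjusted p = 0.0235, limma). That fit leaves out the L. brevis rat without the high Scd signal, so this is a description and no test. Hacd3 and Hacd2, dehydratases of fatty acid elongation, differed by +0.21 (SE 0.08, adjusted p = 0.178) and +0.46 (SE 0.21, adjusted p = 0.219), the latter -0.03 with the GAPDH covariate.

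Triglyceride genes had 3 varying members higher and 9 lower of 18 measured, with a median of -0.06. Lpin1, a phosphatidate phosphatase, differed by -0.73 (SE 0.34, adjusted p = 0.224, limma), with controls 1 and 2 at 9.45 and 9.55 and every other rat between 7.95 and 8.33. Agpat3, an acyltransferase, differed by -0.46 (SE 0.20, adjusted p = 0.206) and Cideb, a droplet protein, by +0.08 (SE 0.08, adjusted p = 0.534).

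Among 29 measured regulators 11 varied, 5 higher and 6 lower, with a median of 0.00. Rxra, the partner of LXR in DNA binding, differed by +0.48 (SE 0.17, adjusted p = 0.159, limma), and by +0.62 without L. brevis 1 (adjusted p = 0.0282, 18.1% of varying probe sets called). Mlx, the partner of ChREBP, differed by +0.33 (SE 0.18, adjusted p = 0.275), opposite in sign to Mlxipl, and Prkaa2, a catalytic subunit of AMP-activated kinase, by +0.19 (SE 0.08, adjusted p = 0.202). The sign of Mlx turned with the GAPDH covariate (-0.08). Nr1h3, LXR-alpha itself, differed by -0.20 (SE 0.13).

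Of the further LXR, SREBP and ChREBP targets 10 were measured and 7 varied, 3 higher and 4 lower, with a median of -0.11. Abcg5, a sterol exporter, differed by +1.00 (SE 0.49, adjusted p = 0.243, limma), with 6.46 to 7.49 in control rats and 6.91, 7.68, 8.04 and 9.28 in L. brevis rats 1 to 4. Gys2, liver glycogen synthase, differed by -0.43 (SE 0.31, adjusted p = 0.410) and Abca1, another sterol exporter, by -0.14 (SE 0.27, adjusted p = 0.776). The sign for Abca1 turned to +0.01 without control 4 and to +0.25 when its varying probe sets were averaged.

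Genes of fasting and fatty acid oxidation respond to food intake in the direction opposite to lipogenesis. Of these 11 varied, 4 with a higher and 7 with a lower mean, with a median of -0.27. By limma 0 were called and 2 had p under 0.05 unadjusted, against 0.0633% and 24.5% of all varying probe sets. Hadhb, of mitochondrial beta-oxidation, differed by +0.72 (SE 0.18, adjusted p = 0.125), Cyp4a3 by +0.42 (SE 0.18, adjusted p = 0.201) and Igfbp1, an insulin-repressed gene, by -1.35 (SE 0.66, adjusted p = 0.243). Igfbp1 was 13.44 and 13.56 in controls 1 and 2 and 10.34 to 11.40 in the other 6 rats. Hadhb was called without L. brevis 1, at +0.84 (adjusted p = 0.0288, limma), as were 18.1% of varying probe sets.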

How the data were processed

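The deposited log2 values, 1 per probe set and array, were summarised and normalized by the authors by a method not given in the sources used here. RNA was isolated with Trizol and a column and labelled, per the labels' protocols, with a 3′ in vitro transcription kit for Affymetrix arrays. Of 31099 probe sets 57 control probe sets did not enter the tests. Genes came from the platform annotation (20826 probe sets with 1 symbol, 436 with several, 9780 with none), and 20758 were updated through gene identifiers to RefSeq GRCr8. A gene was represented by its brightest varying probe set (range above 0.01 log2). The diets were compared with limma 3.58.1 in R 4.3.3 (lmFit, eBayes with intensity trend, two-sided, Benjamini-Hochberg, threshold 0.05) on 6323 varying probe sets. That step was tried on simulated data with independent noise per probe set and no outlying rat. The simulation therefore does not cover the effect of a rat such as L. brevis 1 on the calls. The genes, lists and tests were chosen with earlier results of these data known. Named by rule were the 10 genes, up to 3 genes per other pathway list by smallest p, and the 8 genes most like Scd and 4 most opposite. Scd2, Nr1d2, Car3 and Nr1h3 were named outside that rule, as were some cell type markers. Alternatives were all probe sets, no trend, quantile normalization, median centring, array weights, replicate block, a filter on mean signal, averaged probe sets, each rat left out and a GAPDH covariate. The number of arrays limits the precision. Array medians lay between 6.61 and 6.63.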

Additional observations from a re-analysis of the deposited data

Results flagged for a closer look

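Within a group of 4 rats, 6 of 84 groups checked had a rat whose distance to its nearest neighbour exceeded Dixon's critical share of the group's range. Chance flags about 1 in 20 groups, and the genes most like Scd were picked for having this profile, so their values are not separate evidence. L. brevis 1 was set apart from the other L. brevis rats for Scd (8.83), Crp (10.16), Suclg2 (11.08) and Agmo (11.24), each as the lowest value, and for Slc13a3 (8.44) as the highest. For Dbp, control 4 was the rat apart, as the highest control at 8.19.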

How the results depend on the processing

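The Scd difference stayed positive in all 17 alternatives, from +1.31 with the GAPDH covariate to +3.30 without L. brevis 1. Acaca and Mlxipl stayed negative in all 17. Several alternatives could not move a difference: all probe sets, no trend, the replicate block and the filter on mean signal. Averaged probe sets could not either, since these genes had 1 varying probe set each. The genes were chosen with this contrast known, so the kept signs are a description. The count of called probe sets (0 higher and 4 lower) was less steady. It was 17 and 27 with all probe sets tested, and 759 and 802 with array weights. None were lower with median centring, with a replicate block or with the GAPDH covariate (0 each, limma). Leaving out 1 rat gave from 0 to 542 higher and from 0 to 604 lower, the upper ends without L. brevis 1. Without control 4 there were 2 higher, and the lower count was 0 without control 1, control 2 or L. brevis 2, 3 or 4 and 1 without control 3. Of the genes in the 7 pathway lists, fasting and clock genes included, 0 were called in the fit to varying probe sets. With array weights 7 were called, and with 1 rat left out 0 to 4, the upper end without L. brevis 1. Of all varying probe sets 0.0633% were called in the first fit, 24.7% with array weights and 18.1% without L. brevis 1. Nothing is read from these list counts. Signs turned with the GAPDH covariate for Thrsp (-0.71, from +1.24), Me1 (-0.12, from +0.09), Srebf1 (-0.88, from +0.18), Hacd2 (-0.03), Mlx (-0.08), Npas2 (+0.52, from -1.01) and Dbp (-0.53, from +1.16). Abca1 kept its sign there but not elsewhere (from -0.38 to +0.01 with 1 rat left out, the upper end without control 4, and +0.25 with averaged probe sets). Same-numbered rats were not taken as pairs, since the labels name no shared source and their deviations from the group means had correlations of 0.359, 0.203, 0.078 and 0.381, the third under 0.1. L. brevis 1, 2 and 4 correlated best with the control rat of their own number. L. brevis 3 correlated best with control 4 (0.397). Pairs of unlike number ran from -0.519 (L. brevis 1 with control 4) to that 0.397. Whether same-numbered rats shared a source was not tested. The replicate block left each difference as it was and lowered SEs, for Thrsp from 0.96 to 0.45, for Srebf1 from 0.63 to 0.27 and for Acaca from 0.10 to 0.06. The cause of these shifts was not tested.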
